A study of Saccharomyces cerevisiae with 12 samples.

Results

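Ribosome biogenesis factors are the proteins that make and assemble ribosomal RNA without being part of the finished ribosome, and 50 of them are described here among the 6845 and 6818 features of the 2 expression tables. They were taken by locus identifier from known roles: RNA polymerase I subunits, box C/D and H/ACA proteins, proteins of the small-subunit processome, RNA helicases and large-subunit assembly factors. The choice was made with earlier results of these data known, so the counts of factors called are a description and not a test of the set. All 50 identifiers were in both tables, and the gene symbol of each matched the R64 reference of Saccharomyces cerevisiae. The 12 libraries were made from 4 budding yeast strains sampled at 36 h, with 3 libraries a strain. YJ-06, with a high SAM level (SAM is S-adenosylmethionine, from which most methyltransferases take their methyl group), was set against YJ-04, with a low level, and both carried a bikaverin biosynthesis module, for a fungal pigment. YJ-09 (high SAM) was set against YJ-08 (low SAM), and both carried plasmid pRS416, a yeast shuttle vector. The labels give neither the parent strain, the change that set the SAM level, the medium nor whether a group is more than 1 clone, and SAM itself is not among the values used here.

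Ribosome assembly begins in the nucleolus, where RNA polymerase I transcribes the long precursor of ribosomal RNA. Small nucleolar ribonucleoproteins guide its ribose methylation (box C/D, with the SAM-dependent methyltransferase Nop1) and its pseudouridylation (H/ACA), and the small-subunit processome and the large-subunit assembly factors fold and cut it. In budding yeast the genes for these factors form a regulon that is high in fast growth and low in starvation. Its promoters are known for the PAC element, which the repressors Dot6 and Tod6 bind, and the RRPE element, which the repressor Stb3 binds, while the kinases TORC1 and Sch9 and the activator Sfp1 raise it.

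The values are FPKM, fragments counted on a gene divided by its length and by the size of the library, so levels can be set side by side between genes of a table. Reads on genes matched to R64 came to 15.0 to 17.8 M for each bikaverin library and 40.1 to 45.1 M for each pRS416 library. Every factor had at least 347 reads in each bikaverin library and at least 752 in each pRS416 library, the lowest in both tables being IMP3. The pRS416 libraries differed in more than these genes. The 10 highest features held 8.56% to 9.86% of the summed FPKM in YJ-09 and 19.9% to 20.2% in YJ-08, against 10.2% to 10.6% in YJ-06 and 11.03% to 11.6% in YJ-04. The 12 markers of haploid and mating-type identity summed to 207 to 214 FPKM in YJ-09 and 1698 to 1792 FPKM in YJ-08. Of the 12, 11 were called lower in YJ-09, all but MFA2, as were 38.4% of all features tested. No marker was at 0. The G protein gene STE4 averaged 9.19 ± 0.774 FPKM in YJ-09 and 202 ± 6.42 in YJ-08, and the pheromone gene MF(ALPHA)1 averaged 3.68 ± 0.583 and 707 ± 29.7 (SD, n = 3 each). In the bikaverin pair the same 12 markers summed to 1671 to 2671 FPKM in YJ-06 and 1042 to 1164 in YJ-04. Of these markers, 6 were called higher, 1 lower and 5 not called, against 28.8% higher and 27.9% lower over all features. The part of these differences in the results on the factors was not tested.

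Of the 6 promoters printed here, RPA190 and RPA43 belong to neighbouring genes that behaved differently in the pRS416 pair, NOP58 and DBP2 to the factors of largest change in each pair, and IMP3 and IMP4 to the factors that fell with high SAM in the pRS416 pair. Each runs from 250 bases before the coding start to 50 bases after it, 5′ to 3′ on the strand of the gene, in R64. The windows are chrXV:960737-961036 (RPA190, plus strand), chrXV:960133-960432 (RPA43, minus strand), chrXV:898311-898610 (NOP58, minus strand), chrXIV:413389-413688 (DBP2, plus strand), chrVIII:393284-393583 (IMP3, plus strand) and chrXIV:485357-485656 (IMP4, plus strand). Capitals mark the PAC core GATGAG, or its reverse complement CTCATC, and the RRPE core AAAATTTT, which reads the same on both strands. The sequences are those of the RefSeq assembly.
RPA190: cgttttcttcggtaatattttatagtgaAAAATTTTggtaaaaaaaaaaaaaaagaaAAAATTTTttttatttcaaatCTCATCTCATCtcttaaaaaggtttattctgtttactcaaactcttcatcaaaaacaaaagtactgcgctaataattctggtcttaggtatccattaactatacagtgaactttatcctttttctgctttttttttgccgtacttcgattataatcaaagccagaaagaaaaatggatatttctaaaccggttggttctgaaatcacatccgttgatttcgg
RPA43: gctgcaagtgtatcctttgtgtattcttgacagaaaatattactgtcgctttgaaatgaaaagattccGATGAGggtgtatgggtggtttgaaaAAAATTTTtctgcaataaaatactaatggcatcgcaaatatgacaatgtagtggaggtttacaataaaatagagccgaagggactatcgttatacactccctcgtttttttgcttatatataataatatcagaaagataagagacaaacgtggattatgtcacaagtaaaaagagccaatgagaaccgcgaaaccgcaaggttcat
NOP58: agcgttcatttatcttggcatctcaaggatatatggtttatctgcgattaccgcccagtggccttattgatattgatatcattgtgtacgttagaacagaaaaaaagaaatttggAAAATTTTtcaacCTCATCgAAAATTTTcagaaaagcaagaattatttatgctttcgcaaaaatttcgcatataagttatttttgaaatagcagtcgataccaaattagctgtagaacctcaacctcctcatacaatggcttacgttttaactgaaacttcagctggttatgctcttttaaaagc
DBP2: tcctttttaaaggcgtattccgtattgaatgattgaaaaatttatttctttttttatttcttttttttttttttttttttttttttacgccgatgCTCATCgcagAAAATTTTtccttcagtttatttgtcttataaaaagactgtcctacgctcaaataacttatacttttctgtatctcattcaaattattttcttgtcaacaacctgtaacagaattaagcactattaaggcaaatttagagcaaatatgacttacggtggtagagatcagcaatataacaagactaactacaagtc
IMP3: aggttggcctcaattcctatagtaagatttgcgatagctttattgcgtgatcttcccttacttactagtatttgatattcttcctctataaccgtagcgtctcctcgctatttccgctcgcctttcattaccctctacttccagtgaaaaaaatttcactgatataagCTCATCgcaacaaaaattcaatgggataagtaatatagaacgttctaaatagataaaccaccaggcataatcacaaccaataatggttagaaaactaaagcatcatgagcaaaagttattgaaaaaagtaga
IMP4: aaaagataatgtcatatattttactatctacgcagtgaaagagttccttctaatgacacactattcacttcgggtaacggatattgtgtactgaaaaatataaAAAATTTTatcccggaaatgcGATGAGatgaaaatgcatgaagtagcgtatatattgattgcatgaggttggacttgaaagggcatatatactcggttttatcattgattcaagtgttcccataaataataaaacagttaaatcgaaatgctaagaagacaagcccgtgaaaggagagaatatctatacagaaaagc
The RPA190 window has 2 RRPE cores and 2 PAC cores that share a base. RPA43 has a core of each kind, as do DBP2 and IMP4. NOP58 has a PAC core between 2 RRPE cores, and IMP3 has a PAC core and no RRPE core in its window.

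High SAM and low SAM were compared within each pair with limma on log2(FPKM + 1), and calls were made where the p-value, adjusted by Benjamini-Hochberg over all features tested, was under 0.05. In the bikaverin pair all 50 factors rose in YJ-06, where 28.8% of all 6459 features tested were called higher and 27.9% lower. Their median log2 fold change was 1.03, a 2.04-fold difference, against a median of 0.01 for all features, and it ran from 0.34 in MPP10 to 2.01 in DBP2. In 27 of the 50 the log2 fold change was at least 1, a size that 7.93% of all features reached. For each of the 50, the 3 YJ-06 libraries lay above the 3 YJ-04 libraries, as was so for 33.4% of all features. Summed, the factors held 0.704%, 0.526% and 0.457% of the FPKM of the YJ-06 libraries, against 0.219%, 0.233% and 0.257% in YJ-04. Since whole cultures were measured, fewer cells that express a gene and less of its RNA per cell cannot be told apart. The labels do not say that the 3 libraries of a strain come from separate cultures. Each p-value sets a difference against the spread between libraries, which may thus be technical.

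With plasmid pRS416, 38 factors rose in YJ-09, 2 fell (IMP3 and IMP4) and 10 were not called, where 39.1% of all 6342 features tested were called higher and 38.4% lower. The 40 factors called in either direction are 80%, near the 77.5% of all features, so the number of calls alone does not set the factors apart. By role, 57.1% to 90% of the factors were called higher and 71.4% to 90% in either direction. The median log2 fold change of the 50 was 0.48 (1.40-fold), against -0.01 for all features, with a range of -0.33 to 1.55 in NOP58. At least 1 was reached by 3 of them, NOP58, RRP12 and RPA135, and by 13.9% of all features. The YJ-09 libraries lay above those of YJ-08 for 39 factors and below them for 3, against 40.4% and 39.9% of all features, and the groups overlapped for 8. With the libraries rescaled by the median of ratios, 37 factors rose and 2 fell.

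**Figure D1:**
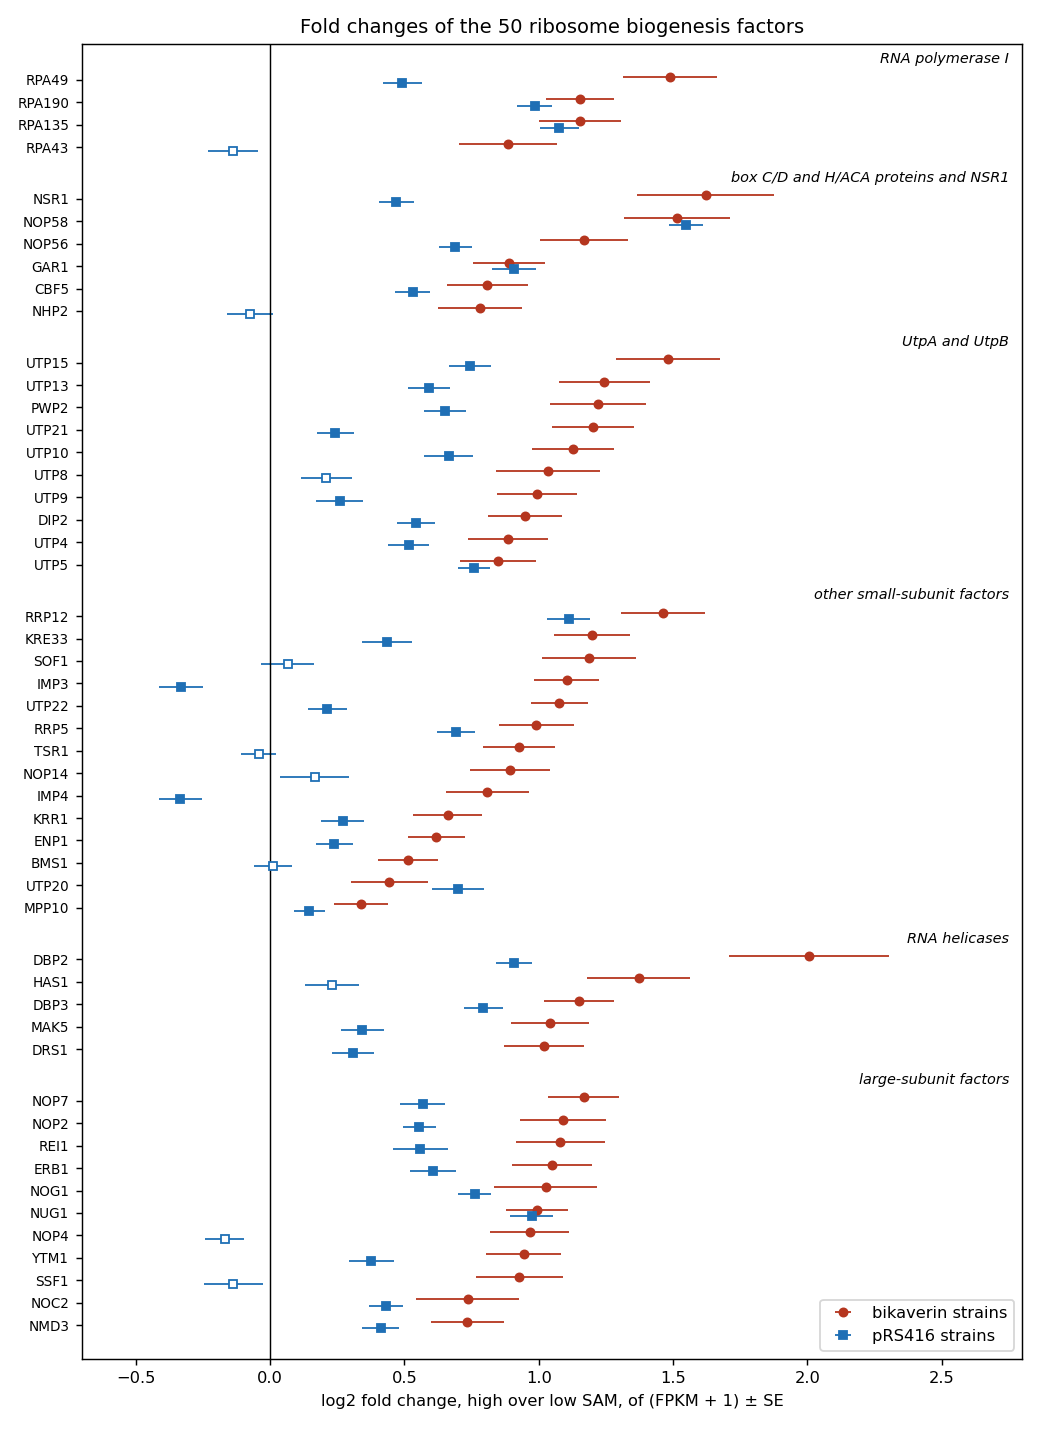
Log2 fold change of high over low SAM for each of the 50 factors, grouped by role, in the bikaverin pair and the pRS416 pair (points, with standard errors as bars, on the log2(FPKM + 1) scale); hollow symbols are factors with an adjusted p of 0.05 or more. All 50 bikaverin points lie right of 0, and 47 of the 50 lie right of the pRS416 point of the same gene.

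The 4 RNA polymerase I genes rose in YJ-06, and 3 of the 4 rose in YJ-09. RPA190 (YOR341W), for the largest subunit, had 70.7, 61.6 and 51.2 FPKM in YJ-06, against 28.5, 27.1 and 24.6 FPKM in YJ-04. It had 44.0, 40.0 and 43.3 FPKM in YJ-09, against 20.4, 21.3 and 21.2 FPKM in YJ-08. Neither pair of groups overlapped, with log2 fold changes of 1.15 (SE 0.13, adjusted p = 0.00022) and 0.99 (SE 0.065, adjusted p = 8.6e-07). The difference of 0.17 between the pairs (SE 0.14, adjusted p = 0.34) was short of the threshold. RPA135 (YPR010C), which forms the active site with RPA190, had 111, 88.4 and 70.3 FPKM in YJ-06, against 39.0, 38.5 and 39.9 FPKM in YJ-04. In the other pair it had 62.7, 53.7 and 55.7 FPKM in YJ-09, against 27.3, 26.4 and 26.2 FPKM in YJ-08. Its log2 fold changes of 1.15 (adjusted p = 0.00053) and 1.08 (adjusted p = 9.3e-07) were close to those of RPA190. RPA49 (YNL248C), for a subunit that aids initiation and elongation, had 109, 79.2 and 69.3 FPKM in YJ-06, against 24.8, 32.2 and 31.5 FPKM in YJ-04. It had 45.2, 43.3 and 40.1 FPKM in YJ-09, against 30.2, 31.9 and 28.4 FPKM in YJ-08. All high-SAM libraries were again above the low-SAM ones, but the log2 fold change of 1.49 in the bikaverin pair exceeded that of 0.49 in the pRS416 pair by 1.0 (adjusted p = 0.0011).

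RPA43 (YOR340C), for the stalk subunit that the initiation factor Rrn3 docks on, rose in the bikaverin pair and was not called in the pRS416 pair. It had 71.9, 48.3 and 41.8 FPKM in YJ-06, against 28.4, 28.9 and 26.8 FPKM in YJ-04. In the pRS416 pair it had 25.7, 22.9 and 21.0 FPKM in YJ-09, against 24.8, 28.0 and 23.9 FPKM in YJ-08. The bikaverin groups were apart (log2 fold change 0.89, adjusted p = 0.0044), whereas the pRS416 groups overlapped (-0.14, SE 0.093, adjusted p = 0.20), and the difference of 1.02 between the pairs was past the threshold (adjusted p = 0.0016). RPA43 and RPA190 lie head to head on chromosome XV, with 804 bases between their coding starts (chrXV:960183-960986), and are the only members of the set that are neighbours in the genome. Read from RPA43, that stretch has a RRPE core and a PAC core near RPA43 and 2 of each near RPA190, all shown in capitals in the 2 promoters above.

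**Figure D2:**
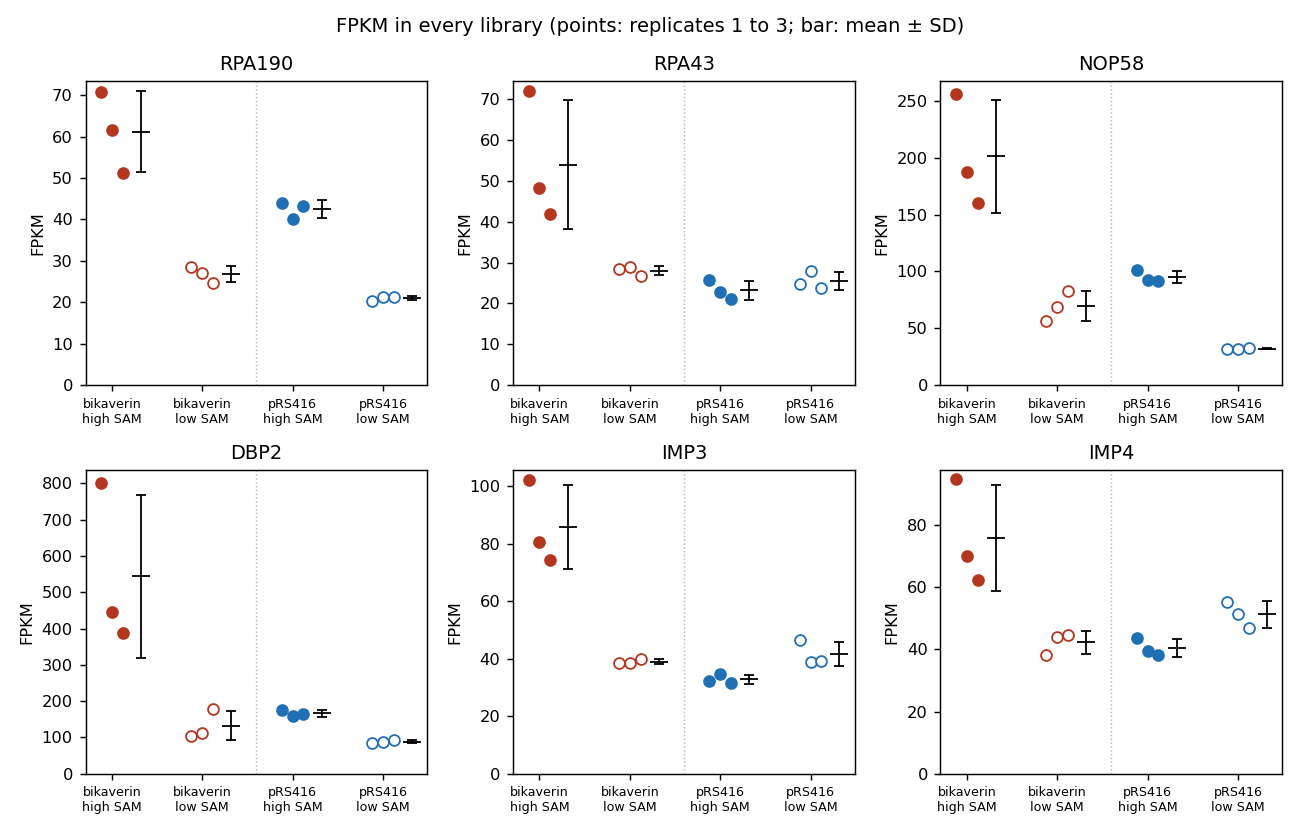
FPKM of RPA190, RPA43, NOP58, DBP2, IMP3 and IMP4 in every library (points) with the mean and SD of each strain (bars), from left to right YJ-06 and YJ-04 (bikaverin, high and low SAM) and YJ-09 and YJ-08 (pRS416, high and low SAM); filled points are high SAM. RPA190, NOP58 and DBP2 lie higher with high SAM in both pairs; RPA43 overlaps between the pRS416 strains, and IMP3 and IMP4 lie lower in YJ-09.

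All 6 genes for box C/D and H/ACA proteins and the nucleolin-like NSR1 rose in YJ-06, and 5 of the 6 rose in YJ-09. NOP58 (YOR310C), for a core protein of the box C/D particles that guide ribose methylation, had 256, 187 and 160.0 FPKM in YJ-06, against 56.6, 68.2 and 82.9 FPKM in YJ-04. It had 102, 92.4 and 91.5 FPKM in YJ-09, against 31.8, 31.5 and 32.4 FPKM in YJ-08. Its libraries did not overlap in either pair, and its 2.98-fold rise in the pRS416 pair (log2 fold change 1.55, SE 0.064, adjusted p = 4.1e-08) was the largest of the 50 there. The log2 fold change of 1.51 in the bikaverin pair (SE 0.20, adjusted p = 0.00048) differed from it by -0.03 (SE 0.22, adjusted p = 0.91). NOP56 (YLR197W), the partner of NOP58 in these particles, had 217, 156 and 139 FPKM in YJ-06, against 69.2, 70.7 and 82.7 FPKM in YJ-04. It had 81.1, 75.8 and 77.6 FPKM in YJ-09, against 49.8, 47.2 and 47.1 FPKM in YJ-08. NOP56 rose in both pairs, by log2 fold changes of 1.17 and 0.69 (adjusted p = 0.00072 and 5.4e-06). The difference of 0.48 between them was called (adjusted p = 0.041), but it was not in 8 of the 12 fits that leave out a library, with adjusted p between 0.0546 and 0.0896. Those libraries were YJ-04 replicates 1 and 2 and each of the 6 pRS416 libraries.

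Of the H/ACA proteins, GAR1 and CBF5 rose in both pairs and NHP2 in the bikaverin pair. GAR1 (YHR089C), whose arginine-rich ends are methylated with SAM in yeast, had 269, 203 and 187 FPKM in YJ-06, against 118, 114 and 118 FPKM in YJ-04. It had 125, 121 and 109 FPKM in YJ-09, against 65.4, 65.8 and 56.9 FPKM in YJ-08. These were rises of 1.88-fold and 1.89-fold (adjusted p = 0.0010 and 6.3e-06), and the difference between the pairs was -0.02 (SE 0.17, adjusted p = 0.93). CBF5, the pseudouridine synthase, rose 1.78-fold and 1.45-fold (adjusted p = 0.0028 and 4.8e-05). NHP2 (YDL208W), a core RNA-binding protein of the same particles, averaged 205 ± 48.2 FPKM in YJ-06 and 117 ± 5.28 FPKM in YJ-04. In the pRS416 pair it averaged 125 ± 14.2 FPKM in YJ-09 and 131 ± 5.94 FPKM in YJ-08 (SD, n = 3 each), where it was not called (log2 fold change -0.08, adjusted p = 0.44), and the difference between the pairs was 0.86 (adjusted p = 0.0021). NSR1 (YGR159C), also a substrate of arginine methylation in yeast, had 572, 397 and 303 FPKM in YJ-06, against 101, 138 and 166 FPKM in YJ-04. It had 88.3, 86.8 and 81.2 FPKM in YJ-09, against 63.6, 58.7 and 61.8 FPKM in YJ-08. NSR1 rose 3.14-fold in the bikaverin pair and 1.39-fold in the pRS416 pair (adjusted p = 0.0012 and 0.00011), and the log2 difference of 1.15 between these was past the threshold (adjusted p = 0.0040).

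The small-subunit processome is seeded by the UtpA complex, which binds the start of the ribosomal RNA precursor, followed by UtpB. All 6 UtpA and 4 UtpB members rose in YJ-06, by log2 fold changes of 0.85 to 1.48, and 9 of the 10 rose in YJ-09, by 0.24 to 0.76. The UtpA member UTP15 (YMR093W) had 73.5, 58.6 and 53.3 FPKM in YJ-06, against 17.7, 18.9 and 28.8 FPKM in YJ-04. It had 35.5, 31.5 and 31.3 FPKM in YJ-09, against 20.3, 19.3 and 17.8 FPKM in YJ-08. With no overlap in either pair, UTP15 had the largest rise of the 10 in the bikaverin pair (log2 fold change 1.48, adjusted p = 0.00053), and 0.74 in the pRS416 pair (adjusted p = 2.2e-05). UTP5 (YDR398W) had 134, 105 and 94.7 FPKM in YJ-06, against 55.8, 58.5 and 68.7 FPKM in YJ-04. It had 54.5, 51.5 and 53.4 FPKM in YJ-09, against 31.8, 30.6 and 30.6 FPKM in YJ-08, the largest rise of the 10 in that pair (log2 fold change 0.76, adjusted p = 2.4e-06). Its difference between the pairs was 0.09 (adjusted p = 0.66). The UtpB member UTP21 (YLR409C) differed most, with 49.0, 36.2 and 33.8 FPKM in YJ-06, against 14.4, 17.3 and 17.9 FPKM in YJ-04. It had 24.9, 23.5 and 22.6 FPKM in YJ-09, against 20.5, 20.02 and 19.0 FPKM in YJ-08. Both pairs were called, at log2 fold changes of 1.20 and 0.24 (adjusted p = 0.00046 and 0.010), and the difference was 0.96 (adjusted p = 0.00050). UTP8 was the member not called in the pRS416 pair (log2 fold change 0.21, adjusted p = 0.072); without YJ-09 replicate 2 it was called (0.27, adjusted p = 0.037). The call of UTP9 in that pair (0.26, adjusted p = 0.023) was lost without YJ-08 replicate 2 or 3 or YJ-09 replicate 1 or 2 (adjusted p = 0.0573 to 0.0839).

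The 14 other small-subunit factors all rose in YJ-06, with the smallest median of the 6 role groups (0.91), and in YJ-09 8 rose, 2 fell and 4 were not called. In the pRS416 pair 57.1% of the 14 were thus called higher, against 39.1% of all features. In either direction 71.4% were called, against 77.5%. RRP12 (YPL012W), needed for export and late cutting of the small subunit, had 96.6, 74.8 and 61.3 FPKM in YJ-06, against 26.6, 25.6 and 29.0 FPKM in YJ-04. It had 43.0, 38.2 and 38.1 FPKM in YJ-09, against 18.1, 16.6 and 19.0 FPKM in YJ-08. It was the largest riser of the 14 in both pairs, at log2 fold changes of 1.46 and 1.11 (adjusted p = 0.00020 and 1.3e-06). IMP3 (YHR148W), which with IMP4 and MPP10 forms a complex of the processome, had 102, 80.6 and 74.4 FPKM in YJ-06, against 38.4, 38.5 and 40.0 FPKM in YJ-04. It had 32.1, 34.6 and 31.6 FPKM in YJ-09, against 46.4, 39.0 and 39.4 FPKM in YJ-08. All 3 YJ-06 libraries were above and all 3 YJ-09 libraries below their low-SAM libraries. IMP3 rose 2.20-fold in the bikaverin pair (log2 fold change 1.10, SE 0.12, adjusted p = 0.00022) and was 1.27-fold lower in YJ-09 (-0.33, SE 0.082, adjusted p = 0.0048). The difference of 1.43 (SE 0.15, adjusted p = 6.3e-06) was the largest of the 50.

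IMP4 (YNL075W) had 95.0, 69.9 and 62.5 FPKM in YJ-06, against 38.1, 44.0 and 44.6 FPKM in YJ-04. It had 43.6, 39.4 and 38.3 FPKM in YJ-09, against 55.4, 51.5 and 46.8 FPKM in YJ-08. Like IMP3, it was higher in all YJ-06 libraries (log2 fold change 0.81, adjusted p = 0.0031) and lower in all YJ-09 libraries (-0.33, SE 0.081, adjusted p = 0.0043), with a difference of 1.14 (adjusted p = 0.00021). MPP10 (YJR002W), the third member of that complex, had the smallest rise of the 50 in the bikaverin pair, averaging 86.9 ± 8.23 FPKM in YJ-06 and 68.4 ± 5.65 FPKM in YJ-04 (log2 fold change 0.34, adjusted p = 0.021). In the pRS416 pair it averaged 65.6 ± 1.88 FPKM in YJ-09 and 59.2 ± 0.855 FPKM in YJ-08 (0.15, adjusted p = 0.041; SD, n = 3 each). The MPP10 calls were lost without YJ-04 replicate 1 or 2 in the bikaverin pair (adjusted p = 0.0637 and 0.0796), and in the pRS416 pair without any YJ-08 replicate, without YJ-09 replicate 1 (0.0737 to 0.118) or with the median of ratios (0.052). UTP20 was called in the bikaverin pair (log2 fold change 0.44, adjusted p = 0.030) but not in 5 of the 6 fits that leave out a library, all but that without YJ-06 replicate 3 (adjusted p = 0.0601 to 0.0864). UTP22 was called in the pRS416 pair (0.21, adjusted p = 0.022) but not without YJ-08 replicate 1 or 2 or YJ-09 replicate 1 (adjusted p = 0.0675 to 0.0884). The 4 factors not called in the pRS416 pair were NOP14, the GTPase gene BMS1, SOF1 and TSR1, at log2 fold changes of 0.17, 0.01, 0.07 and -0.04. Without YJ-09 replicate 3, NOP14 and SOF1 were called higher (0.29 and 0.18, adjusted p = 0.0381 and 0.0439).

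All 5 RNA helicase genes rose in YJ-06 by log2 fold changes of at least 1.02, the only role group with every member past 1, and 4 of the 5 rose in YJ-09. DBP2 (YNL112W), a DEAD-box helicase of ribosomal RNA and messenger RNA, had 802, 445 and 387 FPKM in YJ-06, against 105, 113 and 177 FPKM in YJ-04. It had 176, 158 and 164 FPKM in YJ-09, against 84.3, 87.2 and 92.2 FPKM in YJ-08. Its mean was the highest of the 50 in YJ-06 (545 FPKM) and in YJ-09 (166 FPKM), whereas NSR1 was highest in YJ-04 (135 FPKM) and NHP2 in YJ-08 (131 FPKM). Its rise was 4.14-fold in the bikaverin pair (log2 fold change 2.01, SE 0.30, adjusted p = 0.00092) and 1.89-fold in the pRS416 pair (0.91, SE 0.067, adjusted p = 1.7e-06), and the difference was 1.10 (adjusted p = 0.013). It is also the only one of the 50 with 2 coding exons. HAS1 (YMR290C), a helicase used in both subunits, had 143, 103 and 88.9 FPKM in YJ-06, against 36.4, 39.1 and 50.9 FPKM in YJ-04. It had 33.5, 32.2 and 26.2 FPKM in YJ-09, against 23.9, 26.4 and 27.3 FPKM in YJ-08. The bikaverin groups were apart (log2 fold change 1.37, adjusted p = 0.00070). The pRS416 groups overlapped through YJ-09 replicate 3 (0.23, adjusted p = 0.059), without which HAS1 was called (0.33, adjusted p = 0.0046). Its difference between the pairs was 1.14 (adjusted p = 0.0011). DBP3, DRS1 and MAK5, which act on the large subunit, rose 2.24-fold, 2.06-fold and 2.11-fold in the bikaverin pair and 1.75-fold, 1.25-fold and 1.28-fold in the pRS416 pair.

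The 11 large-subunit factors rose in YJ-06 within the narrowest range of the 6 role groups (log2 fold changes of 0.73 to 1.17), and 9 of the 11 rose in YJ-09. NOP7 (YGR103W), part of a complex with ERB1 and YTM1, had 151, 118 and 106 FPKM in YJ-06, against 51.8, 53.9 and 57.7 FPKM in YJ-04. It had 99.97, 83.7 and 80.2 FPKM in YJ-09, against 58.2, 59.1 and 58.8 FPKM in YJ-08. The rises were 2.29-fold and 1.50-fold with no overlap (adjusted p = 0.00026 and 0.00021), and ERB1 and YTM1 rose 2.14-fold and 1.98-fold in the bikaverin pair and 1.55-fold and 1.31-fold in the pRS416 pair. NUG1 (YER006W), a nucleolar GTPase, had 140, 119 and 107 FPKM in YJ-06, against 57.8, 57.7 and 66.3 FPKM in YJ-04. It had 133, 113 and 127 FPKM in YJ-09, against 59.3, 67.3 and 62.2 FPKM in YJ-08. The pairs gave 2.01-fold and 1.98-fold (adjusted p = 0.00029 and 3.5e-06), a difference of 0.02 on the log2 scale (SE 0.15, adjusted p = 0.92).

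NOP2 (YNL061W), a SAM-dependent methyltransferase of cytosine in the large-subunit ribosomal RNA, had 158, 123 and 106 FPKM in YJ-06, against 54.9, 54.7 and 69.0 FPKM in YJ-04. It had 80.4, 75.4 and 74.7 FPKM in YJ-09, against 53.4, 52.3 and 50.3 FPKM in YJ-08. NOP2 rose in both pairs, 2.17-fold and 1.48-fold (adjusted p = 0.00087 and 2.6e-05). The difference of 0.54 was called (adjusted p = 0.022) and was not without YJ-04 replicate 1 or 2 (adjusted p = 0.0544 and 0.0546). NOP4 (YPL043W), an RNA-binding protein of the early large subunit, had 69.4, 57.1 and 47.7 FPKM in YJ-06, against 25.7, 29.0 and 32.4 FPKM in YJ-04. It had 32.5, 29.1 and 27.5 FPKM in YJ-09, against 33.4, 33.3 and 33.6 FPKM in YJ-08. All YJ-06 libraries were higher (log2 fold change 0.97, adjusted p = 0.0011) and all YJ-09 libraries lower, which was short of the threshold (-0.17, adjusted p = 0.060). Without YJ-09 replicate 1 NOP4 was called lower (-0.23, adjusted p = 0.0149), and with quantile normalization too (adjusted p = 0.0451). SSF1 was also not called in the pRS416 pair (-0.14, adjusted p = 0.28), but was called lower without YJ-09 replicate 1 (-0.25, adjusted p = 0.0329). SSF1 has a copy, SSF2, that is 92.1% identical over its coding sequence, so its reads are uncertain. REI1 shares 453 bases with the opposite-strand gene SLM6, and whether the counting used strand is not known.

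The rise with high SAM differed in size between the pairs for most factors. The test of (YJ-06 minus YJ-04) minus (YJ-09 minus YJ-08) called 32 of the 50 as larger in the bikaverin pair and 0 as smaller, where 28% of all 6278 features tested were called as larger and 29.3% as smaller. The median log2 difference was 0.55, against 0.00 for all features, and 47 of the 50 factors (94%) had the larger log2 fold change in the bikaverin pair, as did 50.1% of all features. The 3 exceptions were NOP58, GAR1 and UTP20, at differences of -0.03, -0.02 and -0.25, none of them called. By calls, 20 factors rose in both pairs and more in the bikaverin pair, and 18 rose in both without a called difference. Another 10 rose in the bikaverin pair and were not called in the pRS416 pair, and IMP3 and IMP4 rose in the bikaverin pair and fell in the other. These joint classes were not counted over all features, so whether their sizes are unusual cannot be said. The count of 32 became 26 to 42 when single libraries were left out, the highest without YJ-06 replicate 3. Across the 50 genes, which are not independent, the log2 fold changes of the pairs had a Pearson r of 0.42 and a Spearman rho of 0.40, against 0.59 and 0.50 for all features.

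The 3 YJ-06 libraries differed among themselves in the same order for every factor. YJ-06 replicate 1 was the highest and replicate 3 the lowest of the 3 in 50 of 50 factors, whereas replicate 1 was the highest in 43.5% and replicate 3 the lowest in 36.6% of all features. The order was not particular to the 50: in 101 other factors of the same roles, described below, replicate 1 was the highest in 97 and replicate 3 the lowest in 92. Over the factors, the median log2 level above the YJ-04 mean was 1.32, 1.0 and 0.76 in replicates 1, 2 and 3. Summed FPKM of the 50 were 6461, 4808 and 4136 in YJ-06, against 2124, 2251 and 2553 in YJ-04. Without YJ-06 replicate 1 the median log2 fold change of the 50 was 0.89, and 49 were called higher. In the pRS416 pair the sums were 2836, 2581 and 2546 FPKM in YJ-09, against 1886, 1897 and 1840 in YJ-08, and YJ-09 replicate 1 was the highest in 46 of the 50. The rise of these genes in YJ-06 thus had a larger spread between libraries (an SD of 1197 FPKM in the sum) than the low-SAM level of the same pair (221 FPKM).

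**Figure D3:**
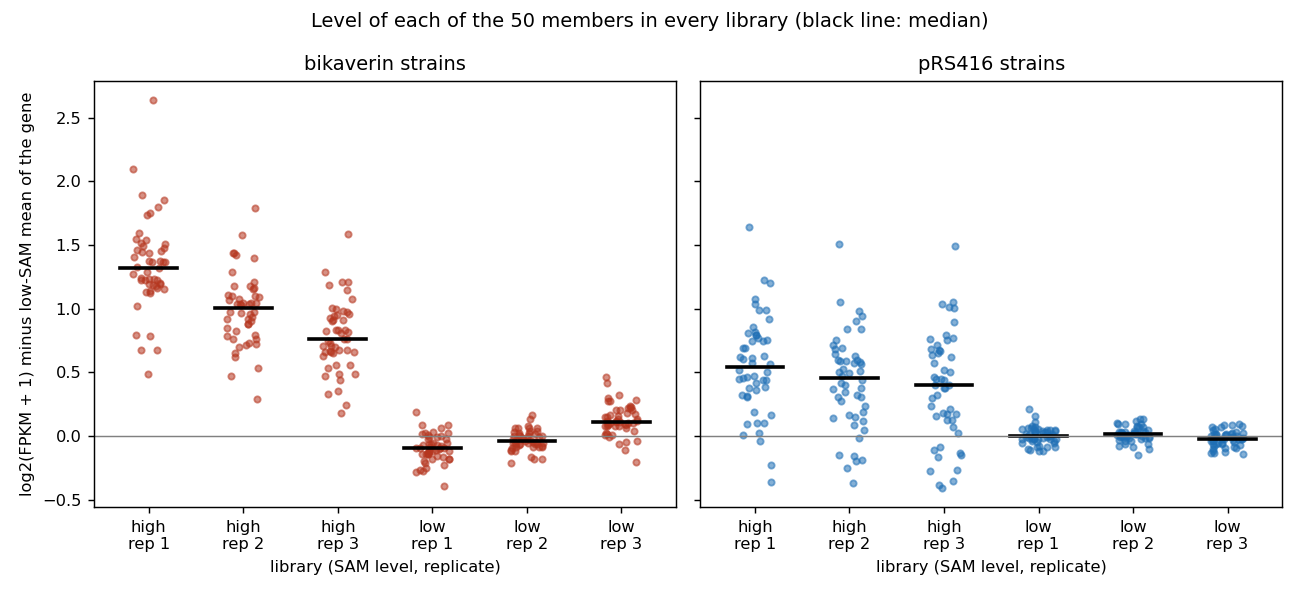
Log2 level of each of the 50 factors in each library minus its mean in the low-SAM strain of the same pair, with the median of the 50 marked for each library and the high-SAM strain left of the low-SAM strain. The medians of the YJ-06 libraries are 1.32, 1.0 and 0.76, and those of the YJ-09 libraries 0.54, 0.46 and 0.40.

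The rest of the pathway, 101 other factors of the same roles taken from general knowledge, moved the same way with more exceptions. In the bikaverin pair 84 rose, 2 fell and 15 were not called (median log2 fold change 0.85), and in the pRS416 pair 60 rose, 18 fell and 23 were not called (0.29). The 86 and 78 called in either direction are 85.1% and 77.2%, against 56.7% and 77.5% of all features. The difference between the pairs was called higher in 57 and lower in 3, together 59.4%, against 57.3% of all features. The 3 largest risers in the bikaverin pair were the large-subunit factors RSA4 (2.98-fold) and NSA2 (2.68-fold) and RRN3, the initiation factor that docks on Rpa43. RRN3 averaged 73.8 ± 8.65 FPKM in YJ-06 and 27.5 ± 2.97 FPKM in YJ-04, and 78.4 ± 0.790 FPKM in YJ-09 and 96.8 ± 1.84 FPKM in YJ-08 (SD, n = 3 each). It rose in the bikaverin pair (log2 fold change 1.39, adjusted p = 6.5e-05) and fell in the pRS416 pair (-0.30, adjusted p = 0.00087), where the gene of its docking subunit, RPA43, was not called. SNU13, a shared protein of box C/D particles, NOG2 and NSA1 were the largest risers in the pRS416 pair, at 2.66-fold, 2.60-fold and 2.34-fold; NOG2 holds 274 bases of the snoRNA gene SNR191 on its strand and is uncertain. NOP1, the methyltransferase of the box C/D particles, had 683, 492 and 403 FPKM in YJ-06, against 176, 206 and 252 FPKM in YJ-04, and 174, 179 and 165 FPKM in YJ-09, against 97.7, 97.7 and 87.9 FPKM in YJ-08. NOP1 thus rose in both pairs (log2 fold change 1.29 and 0.86, adjusted p = 0.0013 and 2.9e-06) with its partners NOP56 and NOP58. It was named after its values were seen. NOP10, the remaining gene listed with SNU13 and NOP1, was not called in the bikaverin pair (0.26, adjusted p = 0.059). It fell in the pRS416 pair (-0.44, adjusted p = 0.0012).

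The factors that fell were few in the bikaverin pair. ESF1, a small-subunit factor, averaged 67.5 ± 9.81 FPKM in YJ-06 and 116 ± 9.20 FPKM in YJ-04, and 39.2 ± 4.04 FPKM in YJ-09 and 334 ± 8.12 FPKM in YJ-08 (SD, n = 3 each). It was 1.72-fold lower in YJ-06 and 8.53-fold lower in YJ-09, against the direction of most other factors in both pairs. RIO1, a kinase of late small-subunit maturation, was 1.77-fold lower in YJ-06 and 2.46-fold lower in YJ-09. CGR1, a large-subunit factor, rose 1.92-fold in the bikaverin pair and was 1.86-fold lower in YJ-09, and the difference of 1.82 was past the threshold (adjusted p = 9.8e-06).

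Transcripts of the 6 regulators did not move as a group. SFP1, for the activator, averaged 124 ± 0.935 FPKM in YJ-06 and 73.0 ± 8.0 FPKM in YJ-04, and 93.4 ± 1.33 FPKM in YJ-09 and 76.3 ± 5.24 FPKM in YJ-08 (SD, n = 3 each). It rose in both pairs (log2 fold change 0.77 and 0.29, adjusted p = 0.00037 and 0.0031), more in the bikaverin pair (difference 0.48, adjusted p = 0.0033). STB3, for the repressor of RRPE promoters, was 1.53-fold lower in YJ-06 and 1.6-fold lower in YJ-09 (adjusted p = 0.00088 and 7.4e-06). DOT6, for a repressor of PAC promoters, had 293, 381 and 393 FPKM in YJ-06, against 289, 272 and 326 FPKM in YJ-04. It had 529, 515 and 573 FPKM in YJ-09, against 138, 138 and 139 FPKM in YJ-08. DOT6 was thus not called in the bikaverin pair (log2 fold change 0.26, adjusted p = 0.13) and rose 3.89-fold in the pRS416 pair (1.95, adjusted p = 1.2e-08), with a difference of -1.69 (adjusted p = 1.6e-06). Its relative TOD6 rose 2.65-fold and 1.59-fold (adjusted p = 5.9e-05 and 9.5e-06), more in the bikaverin pair (difference 0.73, adjusted p = 0.00047). SCH9 rose 1.35-fold and 1.32-fold (adjusted p = 0.0041 and 0.00078). HMO1, a high-mobility-group protein at ribosomal DNA and ribosomal genes, was not called in the bikaverin pair (-0.11, adjusted p = 0.29) and rose in the pRS416 pair (0.71, adjusted p = 1.2e-05). What these transcript levels did to the factors was not tested.

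The promoters of the 50 share the elements of their regulon. The PAC core GATGAG, on either strand of the 300-base window, was found in 48 (96%), against 20.4% of all 6001 promoters and 88.1% of those of the 101 other factors. The longer form GCGATGAG, which contains the core, was in 31 (62%), against 3.93% of all and 44.6% of the 101. The RRPE core AAAATTTT was in 43 (86%), against 9.03% of all and 68.3% of the 101. Both cores were in 42 (84%), against 4.38% of all and 62.4% of the 101. UTP15 had the RRPE core alone and UTP22 neither, and the PAC match of UTP4 lies after its coding start. Matches before the start had a median distance of 120 bases (PAC, 75 matches) and 141 bases (RRPE, 55 matches) from it. A match is a description of these letters in the window and not evidence of binding.

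**Figure D4:**
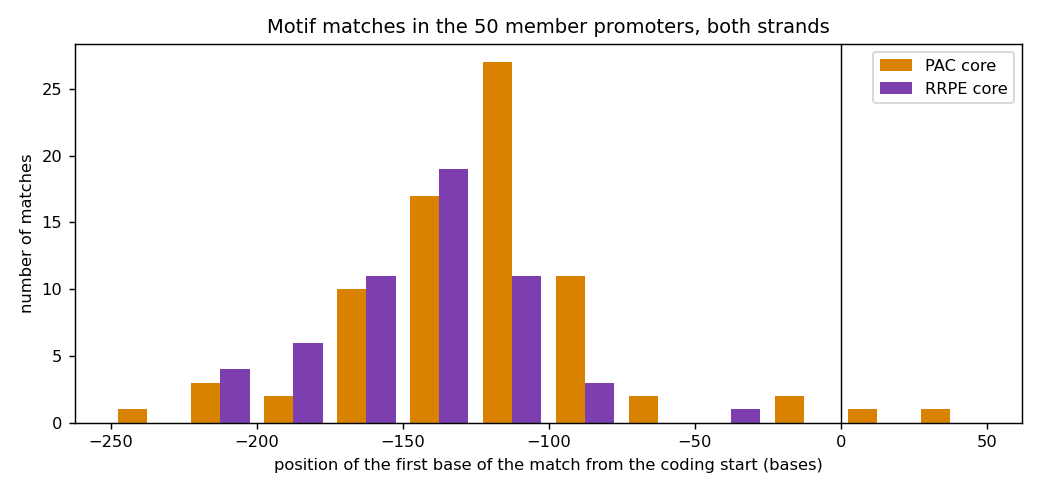
Distance from the coding start of every PAC core and RRPE core in the 50 promoter windows, in bases. The matches before the start gather at medians of 120 (PAC) and 141 (RRPE) bases.

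The factors were also split by the cores in their windows. In the bikaverin pair the 42 factors with both cores and the 6 with a PAC core alone (IMP3, MAK5, NOP4, SOF1, SSF1 and UTP8) all rose, with median log2 fold changes of 1.01 and 1.04. Of the 42 with both cores, 35 rose and 1, IMP4, fell in the pRS416 pair (median 0.54), while of the 6 with a PAC core alone 1, MAK5, rose and 1, IMP3, fell (median -0.04, range -0.33 to 0.34). The difference between the pairs was called as larger in the bikaverin pair in all 6 of these, from 0.70 to 1.43, and in 24 of the 42. Over all features, 28% were called as larger and 29.3% as smaller, together 57.3%. In the bikaverin pair 28.8% of all features were called higher, and in the pRS416 pair 39.1% higher and 38.4% lower. The split was made with the values known and has no test. The groups overlap: 13 of the 42 with both cores, among them IMP4, RPA43, NHP2, BMS1 and TSR1, also lay at or under the highest value of the 6 (0.34) in the pRS416 pair. Divergent neighbours share part of a window.

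**Figure D5:**
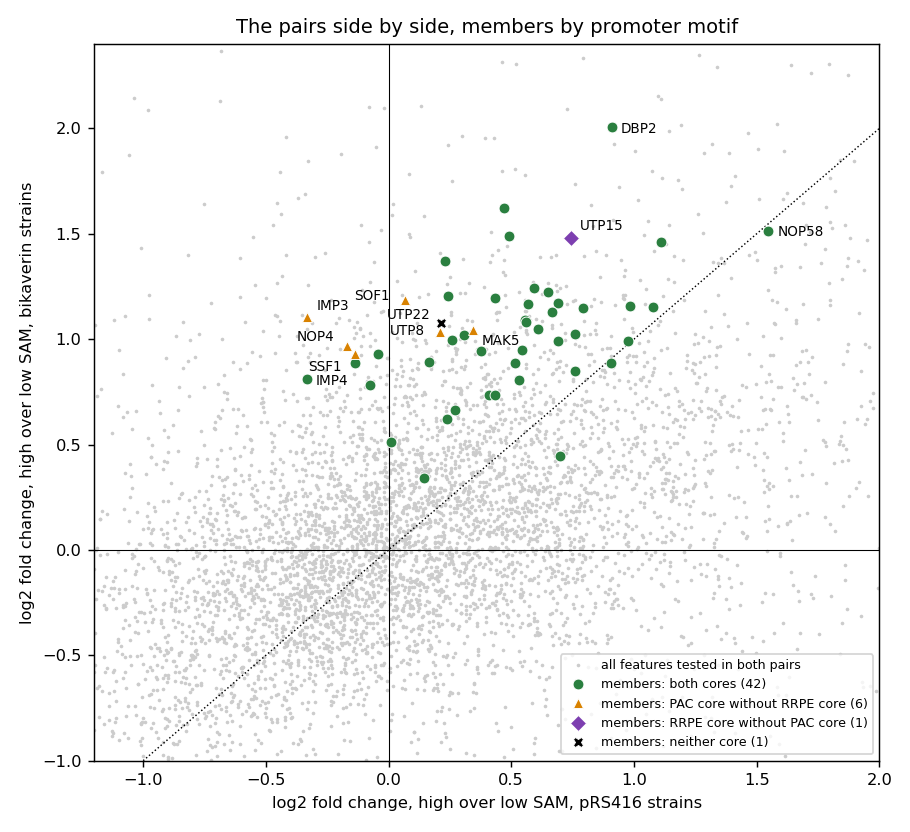
Log2 fold change of high over low SAM in the bikaverin pair (vertical axis) against that in the pRS416 pair (horizontal axis), for the 50 factors marked by the cores in their promoter window, over 5188 of the 6278 features tested in both pairs that fall within the axes. The 6 factors with a PAC core alone lie between -0.33 and 0.34 on the pRS416 axis.

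Gene length and level were also set beside the changes. Across the 50 genes, exonic length had a Spearman rho of 0.10 with the log2 fold change in the bikaverin pair and 0.30 in the pRS416 pair, against 0.10 and 0.13 over all matched features, and these genes share libraries and depth. With the log2 difference between the pairs, length had a rho of -0.29 across the 50, against -0.07 over all matched features. The level in the low-SAM strain had a rho of -0.15 and -0.12 with the log2 fold changes of the bikaverin and pRS416 pairs, against -0.21 and -0.19 over all features. The same low-SAM libraries enter the level and, with opposite sign, the fold change, which by itself pulls rho toward negative values. Besides RPA43 and RPA190, 6 of the 50 lie beside another factor of the 101. In 2 of these 6 pairs of neighbours, UTP9 with RIX1 and GAR1 with RPF1, both genes rose in both pairs of strains, and in the other 4 they did not. RRP3, beside SSF1, was not called in the bikaverin pair (log2 fold change 0.36, adjusted p = 0.082) and fell in the pRS416 pair (-0.34, adjusted p = 0.0049), where SSF1 was not called. DBP8, beside NMD3, rose in the bikaverin pair (0.81) and was not called in the pRS416 pair (0.10, adjusted p = 0.22), where NMD3 rose. RSA3, beside UTP13, was called in neither (0.41 and 0.05, adjusted p = 0.053 and 0.64), whereas UTP13 rose in both. DBP2 rose in both pairs, whereas its neighbour RPC19, for a subunit shared by RNA polymerases I and III, rose in the bikaverin pair (0.98) and was not called in the pRS416 pair (0.15, adjusted p = 0.097).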

How the data were processed

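RNA was measured by sequencing in 12 libraries of 4 strains, grouped by the sample titles. The authors deposited FPKM, in a separate table for the bikaverin and the pRS416 strains. The programs fastp, HISAT2 2.0.5 and featureCounts 1.5.0-p3 and the build R64 are named in the submitters' processing notes, in which the strand setting and annotation are not given. Per the labels' protocols, RNA came from frozen ground samples (RNAprep Pure Plant Plus) and the kit for libraries was Fast RNA-seq Lib Prep Kit V2. Columns were joined by library name and strain title, because another label names columns that differ. To match the tables, 704 identifiers were restyled; 6764 features are in both tables, and 5944 and 5934 matched R64. Depth was read from the FPKM steps of 1 read: of the values below 1000 reads, 97.3% to 98.8% came out whole within 0.02.

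Each pair was fitted within its table with limma 3.58.1 (R 4.3.3, intensity trend), with values as log2(FPKM + 1), a minimum mean of 1 FPKM and no replicate block; all 50 factors passed in both pairs. The pseudocount makes log2 fold changes of low genes too small, and folds are ratios of mean FPKM. The difference of the pairs used 1 fit of the 4 groups, with no level compared across tables. Calls are at a Benjamini-Hochberg adjusted p below 0.05 over all features. The fits were also run on simulated data with far fewer changed genes than were called here. That run does not check the calls under changes as broad as these. Copies (at least 90% identity over 50% of the coding sequence) were found with BLAST+ 2.17.0. Alternatives were the pseudocount, the filter, the scaling, a replicate block and each library left out. Per-library values are given, in each role group, for the members of largest change in each pair and of largest difference, for RPA190, NOP58, NOP56, GAR1, NSR1 and NOP2, and for neighbouring members; of the other factors the 3 largest rises and falls a pair and all 6 regulators are named. The members, lists and motifs were chosen with earlier results of these data known.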

Additional observations from a re-analysis of the deposited data

Results flagged for a closer look

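The log2 fold change of the high-SAM over the low-SAM strain differed between the pairs in 32 of the 50 factors. Each had the larger value in the bikaverin pair, by limma on (YJ-06 minus YJ-04) minus (YJ-09 minus YJ-08). The 32 are 64%, against 57.3% of all 6278 features called in either direction, of which 28% were larger and 29.3% smaller in the bikaverin pair. The log2 differences were 1.02 in RPA43 and 1.0 in RPA49 among the RNA polymerase I genes. Among the snoRNP proteins and NSR1 they were 0.48 in NOP56, 0.86 in NHP2 and 1.15 in NSR1. In UtpA they were 0.82 in UTP8, 0.73 in UTP9, 0.46 in UTP10 and 0.74 in UTP15, and in UtpB 0.57 in PWP2, 0.40 in DIP2, 0.65 in UTP13 and 0.96 in UTP21. The other small-subunit factors gave 0.86 in UTP22, 1.43 in IMP3, 1.14 in IMP4, 0.73 in NOP14, 0.39 in KRR1, 0.50 in BMS1, 0.76 in KRE33, 1.12 in SOF1, 0.38 in ENP1 and 0.97 in TSR1. The helicases gave 1.10 in DBP2, 0.71 in DRS1, 1.14 in HAS1 and 0.70 in MAK5. The large-subunit factors gave 0.54 in NOP2, 1.14 in NOP4, 0.60 in NOP7, 0.57 in YTM1 and 1.06 in SSF1, whose reads are uncertain because of its copy SSF2. The calls of DIP2, KRR1, NOP56, UTP10 and PWP2 were lost in 7 to 10 of the 12 fits that leave out a library, and those of ENP1 and NOP2 in 4 and 2. The pairs also differ in the mating-type markers, and the part of these markers in the differences was not tested.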

How the results depend on the processing

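Under the other pseudocount, filters and scalings and the replicate block, 50 factors rose in the bikaverin pair in every fit, 37 or 38 rose and 2 or 3 fell in the pRS416 pair, and 27 to 34 differed between the pairs. The labels do not say whether libraries of the same replicate number belong together. The correlations of same-numbered deviations were 0.03, -0.08 and 0.12 in the bikaverin pair and -0.13, -0.03 and -0.14 in the pRS416 pair. These values show no sign of pairing, but they cannot show that the libraries were made apart. The fit with the replicate block gave 50 factors higher in the bikaverin pair, 37 higher and 2 lower in the pRS416 pair, and 27 with a difference; it did not call MPP10 in the pRS416 pair (adjusted p = 0.093) or the difference in NOP56, UTP10, PWP2, DIP2 and ENP1 (0.067, 0.079, 0.054, 0.077 and 0.057). Leaving out single libraries gave 48 to 50 factors higher in the bikaverin pair, 35 to 41 higher and 2 to 4 lower in the pRS416 pair (4 without YJ-09 replicate 1), and 26 to 42 with a difference. The medians were then 0.89 to 1.16, 0.45 to 0.51 and 0.41 to 0.69. The longer PAC form was in 31 promoters and the core in 48. Signs turned round only in values that were not called. In the pRS416 pair, leaving out single libraries gave BMS1 from -0.029 to 0.070 and TSR1 from -0.074 to 0.0023. In the difference it gave RPA135 from -0.083 to 0.24, NOP58 from -0.22 to 0.12, GAR1 from -0.17 to 0.088, UTP5 from -0.050 to 0.20 and NUG1 from -0.082 to 0.11, and GAR1 was 0.030 with quantile normalization. The cause was not tested. Of the 12 fits that leave out a library, the call of the difference was lost in 10 for DIP2, 9 for KRR1 and 8 each for NOP56 and UTP10. It was lost in 7 for PWP2, 4 for ENP1 and 2 for NOP2, and all of these but NOP2 also lost it under another setting. Adjusted p in these fits was up to 0.109. UTP20 has no value in the pRS416 pair or the difference with the filter at a mean of 10 FPKM.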

Other observations

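Genes outside the lists that carry both promoter cores also leaned upward with high SAM. Of 155 such genes, 56.8% rose and 10.3% fell in the bikaverin pair (median log2 fold change 0.45), and 50.3% rose and 23.2% fell in the pRS416 pair (0.19). Of the genes outside the lists with neither core, 25.8% rose and 30.7% fell in the bikaverin pair, and 38.8% rose and 39.8% fell in the pRS416 pair. With a PAC core alone, 869 genes gave 30.1% higher and 28.7% lower in the bikaverin pair (median 0.01), and with an RRPE core alone 263 genes gave 38.8% higher and 20.5% lower (median 0.17). In the pRS416 pair 867 genes with a PAC core alone gave 39.7% higher and 40.4% lower (median -0.05). There 257 genes with an RRPE core alone gave 43.6% higher and 37.0% lower (median 0.08). These shares are a description with no test, the genes may include further factors of ribosome assembly, and divergent neighbours share part of a window.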
